A study of Homo sapiens with 30 samples.

Results

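Metallothioneins and zinc transporters were examined as a set of 10 named genes out of 23710 gene symbols in the count tables. The rule names the genes by symbol and uses no measured value, although the set was proposed with results of these data known. All 10 symbols were found in both the count and the FPKM tables. It holds 5 metallothioneins (MT1E, MT1F, MT1G, MT1X and MT2A), 2 zinc exporters (SLC30A1 and SLC30A4) and 3 zinc importers (SLC39A1, SLC39A6 and SLC39A10). Their levels were followed over 10 conditions of prostate cancer cells, with 3 libraries in each.

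MR49F is an enzalutamide-resistant line derived from LNCaP, a human prostate cancer line. Its parental line V16D is castration-resistant. In full serum, V16D and MR49F cells were kept free of enzalutamide for 96 h and were then given vehicle (0.1% DMSO) or 10 µM enzalutamide, an antiandrogen drug, for 24 h (12 libraries). In charcoal-stripped serum, which is depleted of androgens, MR49F cells were held for 72 h. They were then treated for 24 h with vehicle (DMSO and ethanol), 10 µM enzalutamide, 1 nM dihydrotestosterone (DHT, a natural androgen), 500 nM JQ-1 (an inhibitor of BET bromodomain proteins), or JQ-1 combined with either enzalutamide or DHT (18 libraries). The 24 h taken here for the groups with JQ-1 differs from a figure legend of the study, which refers their RNA-seq to a treatment of several days. Each line stands for a single derivation, and the replicates are wells of that line. The methods call them biological replicates, each pooled from wells, while the sample labels say only that cells were plated in triplicate. The p-values measure the spread between these libraries, and whether that spans separate cultures is not stated in the labels.

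Metallothioneins are small cysteine-rich proteins that bind zinc and copper and buffer the free metal in the cell. Their genes are switched on by the zinc sensor MTF1, which binds metal response elements in their promoters, and glucocorticoids also induce MT2A. Proteins of the SLC30 family (ZnT) move zinc out of the cytosol, SLC30A1 across the plasma membrane and SLC30A4 mainly into endosomal vesicles. Proteins of the SLC39 family (ZIP) move zinc into the cytosol, and SLC39A1, SLC39A6 (LIV-1) and SLC39A10 do so at the plasma membrane. Normal prostate epithelium is known for accumulating large amounts of zinc, and prostate cancer cells for holding less.

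The coding sequences of the 4 metallothioneins with more than trace FPKM are printed first, because their likeness bears on every metallothionein value given here. They are from the GENCODE release 44 transcripts mapped to GRCh37 and lack the stop codon, and capitals mark the cysteine codons TGC and TGT.
MT2A: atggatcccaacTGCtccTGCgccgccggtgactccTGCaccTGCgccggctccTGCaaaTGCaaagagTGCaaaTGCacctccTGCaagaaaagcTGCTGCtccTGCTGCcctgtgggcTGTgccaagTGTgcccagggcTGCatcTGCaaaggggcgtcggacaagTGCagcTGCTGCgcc
MT1X: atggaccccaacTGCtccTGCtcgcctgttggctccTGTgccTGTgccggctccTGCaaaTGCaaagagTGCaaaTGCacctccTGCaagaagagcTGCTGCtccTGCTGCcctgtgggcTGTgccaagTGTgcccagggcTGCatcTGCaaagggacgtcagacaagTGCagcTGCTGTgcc
MT1F: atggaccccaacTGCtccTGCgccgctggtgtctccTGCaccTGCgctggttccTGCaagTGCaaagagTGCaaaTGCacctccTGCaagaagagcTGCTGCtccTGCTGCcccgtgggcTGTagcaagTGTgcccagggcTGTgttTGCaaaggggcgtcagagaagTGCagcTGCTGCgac
MT1G: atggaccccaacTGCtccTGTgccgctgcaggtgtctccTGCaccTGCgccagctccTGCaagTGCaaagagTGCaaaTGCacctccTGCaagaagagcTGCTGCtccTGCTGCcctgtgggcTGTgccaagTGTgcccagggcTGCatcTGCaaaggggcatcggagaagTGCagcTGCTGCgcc
All 4 hold 20 cysteine codons, in 61 codons for MT2A, MT1X and MT1F and in 62 for MT1G. Identity between pairs ran from 88.5% (MT1F and MT1X) to 93.5% (MT1G and MT2A). The reads were 50 bases long. Of all 50-base windows of the whole transcript, 11.1% in MT2A, 51% in MT1X, 6.12% in MT1F and 19.9% in MT1G were found letter for letter in a transcript of another gene, so reads from those windows could not be assigned to 1 gene. The 5 genes lie together on chromosome 16 (GRCh37) at chr16:56642496-56643409 (MT2A), chr16:56659387-56661024 (MT1E), chr16:56691643-56694610 (MT1F), chr16:56700642-56701977 (MT1G, minus strand) and chr16:56716382-56718108 (MT1X).

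Promoter windows of 300 bases, 250 before and 50 after the start, were matched for 7 of the 10 genes in RefSeq (GRCh38.p14). Those of MT2A and MT1X are shown because they held the most cores among the 7 genes, with capitals marking the core of the metal response element, searched as TGCACNC and TGCGCNC on both strands.
MT2A, chr16:56608334-56608633, plus strand: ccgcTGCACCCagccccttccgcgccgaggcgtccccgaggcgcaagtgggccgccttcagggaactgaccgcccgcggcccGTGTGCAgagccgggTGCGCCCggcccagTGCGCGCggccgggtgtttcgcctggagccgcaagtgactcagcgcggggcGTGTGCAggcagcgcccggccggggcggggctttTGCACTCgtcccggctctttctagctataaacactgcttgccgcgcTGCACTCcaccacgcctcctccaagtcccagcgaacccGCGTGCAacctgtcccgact
MT1X, chr16:56682220-56682519, plus strand: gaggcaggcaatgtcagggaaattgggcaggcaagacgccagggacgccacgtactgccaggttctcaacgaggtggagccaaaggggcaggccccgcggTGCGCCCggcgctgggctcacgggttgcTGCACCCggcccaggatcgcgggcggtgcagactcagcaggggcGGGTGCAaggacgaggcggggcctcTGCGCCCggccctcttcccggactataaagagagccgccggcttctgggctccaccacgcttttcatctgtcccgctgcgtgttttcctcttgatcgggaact
The MT2A window held 8 cores and the MT1X window 4. Of 35116 promoter windows of the same length, 29.6% held at least 1 core, 0.601% at least 4 and 0.0199% at least 8. The SLC30A1 window held 2, and 8.6% of all windows held at least 2. The SLC30A4 and SLC39A6 windows held 1 each, and those of SLC39A1 and SLC39A10 0 or 1 in their 2 entries. FPKM with DHT was lower for MT2A, MT1X, SLC30A1 and SLC30A4 and higher for the other 3, and nothing is read from the numbers of cores. A match of letters describes the window and is not evidence of binding.

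Between 13170504 and 21154962 reads were counted on genes in each full serum library, and between 982130 and 1813262 in each stripped serum library. Of all reads counted on genes, in no annotated feature or ambiguous, these made up 73 to 77.8% in full serum and 5.13 to 7.66% in stripped serum. Which strand setting the counting used is not given in the sources used here. Among pairs of genes that overlap on opposite strands and differ at least 5-fold in FPKM, the gene with the lower FPKM had more counted reads in 2.3% of 651 pairs in V16D and 2.56% of 664 in MR49F vehicle libraries in full serum, but in 20.5% of 644 in stripped serum vehicle libraries. The stripped serum counts may thus hold many reads from the strand opposite to the gene, which was not tested, and they are a weaker second measure than the full serum counts. They are therefore given beside FPKM (read coverage scaled to transcript length and sequencing depth, summed over the transcripts of a gene), and a member is said to have risen or fallen there only where both measures passed in the same direction. Known responses matched the labels: FPKM of KLK3, which encodes prostate-specific antigen and is induced by androgens, averaged 509 in V16D vehicle and 133 in V16D enzalutamide libraries, and 283 in MR49F vehicle and 1258 in DHT libraries in stripped serum. HEXIM1, which JQ-1 induces, averaged 13.5 in vehicle and 86.9 in JQ-1 libraries. The 3 basal markers summed to at most 0.352 FPKM in every library. Neuroendocrine markers summed to at most 1.89 FPKM in every library without JQ-1 and to 6.92 to 9.72 in the 9 with JQ-1 (only SYP averaged over 1 FPKM), while the leukocyte and fibroblast lists summed to at most 6.44 and 1.8. The part of these markers in the JQ-1 results was not tested. In bulk RNA, fewer cells with a transcript and less of it in each cell cannot be told apart.

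MT2A was by far the most abundant metallothionein, with 64.6 to 80.8% of the summed FPKM of the 5 members in the full serum group means and 63 to 78.7% in stripped serum. The lowest MT2A mean was in DHT-treated MR49F cells (47.5 FPKM) and the highest in V16D (184 FPKM with enzalutamide). Among the 8 members other than MT1E and MT1G, whose lowest group means were 0, SLC30A4 ranged most, 9.12-fold between its lowest and highest group mean, and SLC30A1 least, 1.5-fold. Both ranges span the full and stripped serum experiments, whose FPKM were not rescaled to each other. Within full serum the SLC30A4 means ran from 13.7 to 70.9 FPKM, and within stripped serum from 37.45 to 125. DHT lowered MT2A and SLC30A4 and raised SLC39A1, SLC39A6 and SLC39A10 in stripped serum. With JQ-1 added to DHT, all of these genes had changes in the opposite direction, which passed on both measures except for SLC39A10. Its change was -0.44 on FPKM (limma adjusted p = 3.64e-05) and -0.26 on counts (edgeR adjusted p = 0.13). That of SLC39A6 passed narrowly on counts (edgeR adjusted p = 0.0399). JQ-1 without ligand also lowered SLC39A1 and raised SLC30A4 on both measures, so for these 2 genes the opposite direction is not particular to DHT. Whether JQ-1 changed the DHT effect on SLC39A1 passed on FPKM only. The rise of SLC39A1 with DHT was narrow on counts (edgeR adjusted p = 0.0238) and was lost in DESeq2 (adjusted p = 0.125). SLC39A1 fell to less than its level in all other conditions wherever JQ-1 was present.

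**Figure D1:**
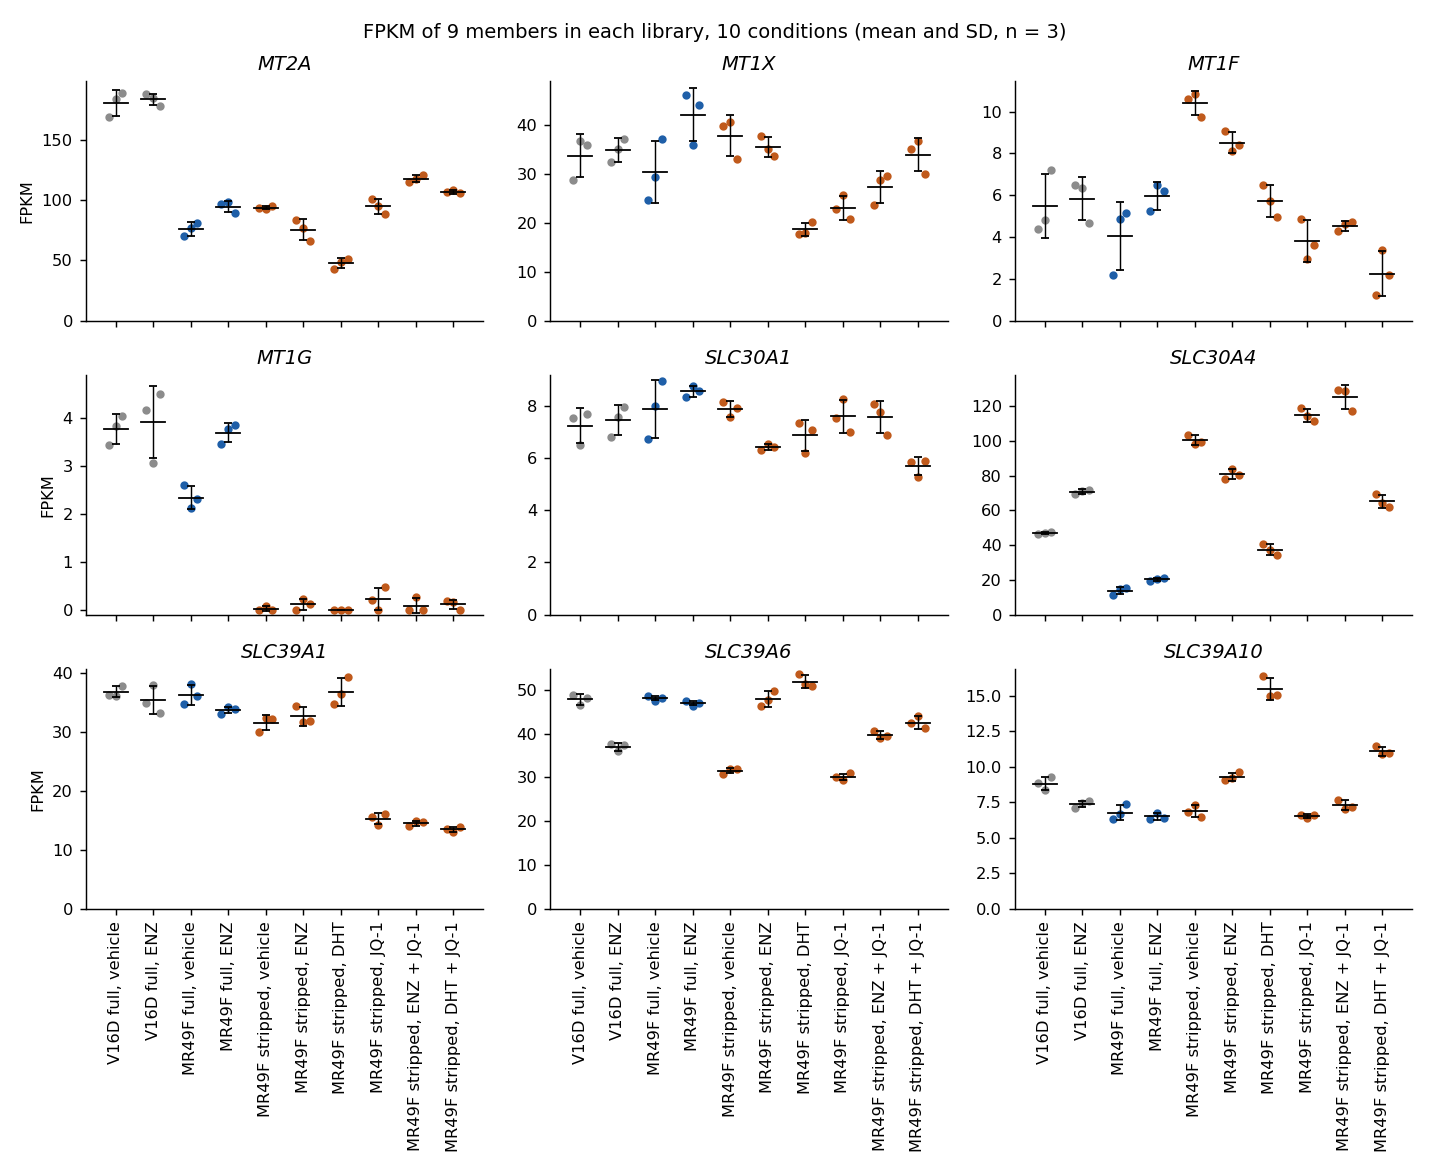
FPKM (vertical axes, linear) of 9 members in each of 30 libraries over 10 conditions (horizontal axes). Points are libraries, coloured grey for V16D in full serum, blue for MR49F in full serum and orange for MR49F in stripped serum, and bars show the mean and SD of 3. SLC30A4 sits at 11.3 to 15 FPKM in MR49F vehicle cells in full serum and at 98.2 to 104 in stripped serum, and SLC39A1 sits at 13 to 16.1 in the 9 libraries with JQ-1 and above 30 in the other 21.

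Of the 10 members, 8 passed the filter on low counts in full serum, where the 2 that did not were MT1E and MT1G. In V16D, enzalutamide changed 4 members (1 up and 3 down) at an adjusted p of at most 0.05 in edgeR, where 37.5% of 14079 genes tested passed. In MR49F, 2 rose, where 8.48% of 13927 passed. Between the lines under vehicle, 3 were lower in MR49F, where 63.7% of 14013 passed. The enzalutamide effect differed between the lines for 1 member, where 6.95% of 14471 passed.

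In stripped serum, 6 or 7 members passed the count filter and 8 the FPKM filter. Enzalutamide passed the test for 1 member on counts (edgeR, background 7.26% of 11131 genes) and 6 on FPKM (limma, 38.7% of 12178). DHT did so for 5 on counts (37.5% of 11004) and 8 on FPKM (72.1% of 12180). DHT set against enzalutamide gave 3 on counts (19.4% of 10916) and 6 on FPKM (57.4% of 12029). JQ-1 alone gave 2 on counts (46.6% of 11332) and 4 on FPKM (75.1% of 12203). JQ-1 added to enzalutamide gave 3 on counts (45.1% of 10863) and 8 on FPKM (75.7% of 12148), and JQ-1 added to DHT gave 4 on counts (54.7% of 10779) and 8 on FPKM (78.8% of 11856). Where it was asked whether JQ-1 changed the response to enzalutamide, no member passed on counts in edgeR (0.895% of 11625 genes did), 1 had an unadjusted p under 0.05, none passed in DESeq2, and 4 passed on FPKM (19.2% of 12454). Where it was asked whether JQ-1 changed the response to DHT, 3 passed on counts (12.3% of 11572) and 6 on FPKM (48% of 12469). No member was called in opposite directions by the 2 measures in any of these comparisons. As a share of members tested, calls were below the background between the lines and for JQ-1 alone and above it in most other comparisons, but with 6 to 9 members tested each member weighs over 10% and nothing particular to the members is read from it.

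In full serum MT2A differed between the lines more than it responded to the drug. Its FPKM was 169, 184 and 189 in V16D vehicle libraries, 188, 185 and 179 with enzalutamide, 70, 77.2 and 81 in MR49F vehicle libraries and 96.6, 98.2 and 89.2 with enzalutamide. Every V16D library was above every MR49F library, and in MR49F the treated libraries were above the vehicle ones. MT2A was lower in MR49F than in V16D under vehicle by a log2 fold change of -1.25 (SE 0.07, edgeR adjusted p = 2.15e-08). Enzalutamide changed it by -0.01 (SE 0.04) in V16D, which did not pass (edgeR adjusted p = 0.835), and raised it by 0.27 (SE 0.07) in MR49F, which passed narrowly (edgeR adjusted p = 0.0418). That call rested on single libraries, because the adjusted p was 0.168, 0.172, 0.0753 and 0.102 without MR49F enzalutamide replicate 1, 2 or 3 or vehicle replicate 2, 0.0593 in limma on FPKM and 0.0872 in DESeq2. The difference between the lines in this effect was 0.27 (SE 0.08) and missed the threshold (edgeR adjusted p = 0.0505, 0.0292 to 0.0495 under 6 of the alternatives).

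MT1X and MT1F, further metal-inducible isoforms, were higher on average with enzalutamide in MR49F without passing the test. MT1X was at 28.7, 36.8 and 35.9 FPKM in V16D vehicle, 32.4, 35.1 and 37.2 in V16D enzalutamide, 24.7, 29.4 and 37.1 in MR49F vehicle and 46.3, 36 and 44.1 in MR49F enzalutamide libraries. The groups overlapped within each line. Its log2 fold change with enzalutamide in MR49F was 0.44 (SE 0.14, edgeR adjusted p = 0.0811), but it passed without vehicle replicate 1 or 3 (edgeR adjusted p = 0.0343 and 0.0195), with no filter on low counts (0.0377) and with all full serum groups in 1 fit (0.0248). MT1F, with 9 to 41 reads in a library, had 0.52 there (SE 0.28, edgeR adjusted p = 0.271).

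MT1E and MT1G were close to undetected by counts. A single read of MT1E was counted in 1 of 12 full serum libraries and none in 18 stripped serum libraries, where 3 reads, the limit that a count of 0 allows, correspond to 1.65 to 3.05 CPM (reads scaled to the library's total on genes). MT1G had 2 reads in one full serum library, 1 in another and 0 in the other 28. Its FPKM was nevertheless 2.12 to 4.5 in all 12 full serum libraries and at most 0.476 in stripped serum. By FPKM it was lower in MR49F than in V16D vehicle libraries (log2 fold change -0.51, SE 0.08, limma adjusted p = 0.00134) and higher with enzalutamide in MR49F (0.49, SE 0.07, limma adjusted p = 0.0189). These FPKM rest on almost no reads counted on MT1G itself. Among the other metallothioneins, MT1B, MT1H and MT4 were listed at 0 in every library, and MT1A and MT1M had 0 reads in all 30 libraries but 0.346 to 1.61 and 0.0381 to 0.398 FPKM in full serum.

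**Figure D2:**
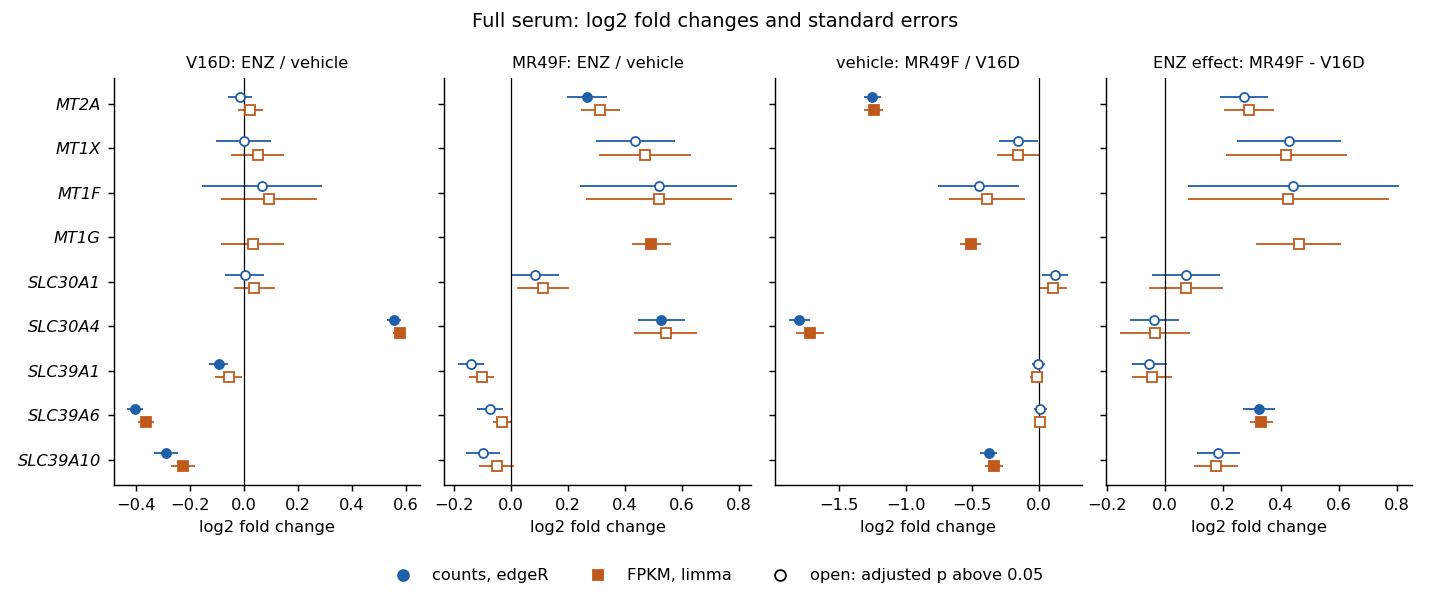
Log2 fold changes (horizontal axes) of 9 members (vertical axis) in full serum for enzalutamide (ENZ) in V16D, enzalutamide in MR49F, MR49F against V16D under vehicle, and the difference between the lines in the enzalutamide effect. Circles are edgeR on counts, squares limma on log2(FPKM + 1), bars are standard errors and open symbols have an adjusted p above 0.05. SLC30A4 lies at 0.56 in V16D and 0.53 in MR49F on counts, and SLC39A6 at -0.40 in V16D and -0.07 in MR49F.

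In stripped serum DHT lowered MT2A to its lowest level of the series, and JQ-1 added to DHT or to enzalutamide raised it. The FPKM was 93.9, 93.1 and 94.8 with vehicle, 83.5, 76.6 and 66.1 with enzalutamide, 42.9, 48.6 and 51 with DHT and 101, 94.8 and 89 with JQ-1. With enzalutamide and JQ-1 it was 115, 117 and 121, and with DHT and JQ-1 107, 109 and 106. All DHT libraries lay below all others, and on FPKM those of both JQ-1 combinations lay above all vehicle libraries. Neither combination was tested against vehicle, and on counts scaled to library size they overlapped with it. The counts were low, at 42, 23 and 40 reads with vehicle, 10, 23 and 8 with DHT and 50, 41 and 46 with DHT and JQ-1, and on counts scaled to library size the vehicle and DHT groups overlapped. MT2A fell with DHT by 1.23 (SE 0.33) on the log2 scale of counts (edgeR adjusted p = 0.00446) and by 0.97 (SE 0.06) on that of FPKM + 1 (limma adjusted p = 1.42e-06). With enzalutamide the values were -0.59 (SE 0.26, edgeR adjusted p = 0.217) and -0.32 (SE 0.07, limma adjusted p = 0.00898), so that only FPKM passed. JQ-1 alone gave -0.29 (SE 0.23, edgeR adjusted p = 0.306) and 0.01 (SE 0.05, limma adjusted p = 0.792).

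MT2A rose when JQ-1 was added to DHT, by 1.53 (SE 0.27, edgeR adjusted p = 1.1e-05) on counts and 1.16 (SE 0.06, limma adjusted p = 5.68e-07) on FPKM. When JQ-1 was added to enzalutamide it rose by 0.72 (SE 0.25, edgeR adjusted p = 0.0206) and 0.64 (SE 0.07, limma adjusted p = 5e-05), but the count call was lost without enzalutamide replicate 2 or 3 (adjusted p = 0.0659 and 0.0518), without combination replicate 1 or 2 (0.127 and 0.0525), and in DESeq2 (0.103). The DHT effect differed with and without JQ-1 by 1.82 (SE 0.38, edgeR adjusted p = 0.000479) on counts and 1.14 (SE 0.08, limma adjusted p = 5.4e-07) on FPKM. For enzalutamide that difference was 1.01 (SE 0.36, edgeR adjusted p = 0.189) and 0.63 (SE 0.10, limma adjusted p = 0.00107).

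MT1X had the same pattern with DHT on FPKM but not with JQ-1 alone. Its FPKM was 39.9, 40.6 and 33 with vehicle, 37.8, 35.1 and 33.7 with enzalutamide, 17.8, 17.9 and 20.3 with DHT and 22.8, 25.7 and 20.7 with JQ-1. It was 23.6, 28.8 and 29.5 with enzalutamide and JQ-1 and 35.2, 36.7 and 30.1 with DHT and JQ-1. Each agent alone gave lower FPKM than vehicle, except enzalutamide, while DHT and JQ-1 together overlapped with vehicle. On FPKM the DHT effect was -0.98 (SE 0.08, limma adjusted p = 9.93e-06), the JQ-1 effect -0.69 (SE 0.09, limma adjusted p = 0.000182), and the DHT effect differed with and without JQ-1 by 1.52 (SE 0.14, limma adjusted p = 4.22e-06). With 3 to 16 reads in a library, MT1X failed the count filter for DHT against vehicle and for JQ-1 added to either ligand. Where counts could be tested, JQ-1 alone gave 0.26 (SE 0.41, edgeR adjusted p = 0.63), opposite in sign to FPKM. Enzalutamide gave 0.65 on counts (SE 0.38, edgeR adjusted p = 0.373) and -0.08 on FPKM (SE 0.08, limma adjusted p = 0.435). On counts the difference of the DHT effect was 0.57 (SE 0.60, edgeR adjusted p = 0.609), so no rise or fall is stated for it.

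MT1F had lower FPKM in all 9 libraries with JQ-1 than in the 9 without. The libraries were at 10.6, 10.8 and 9.76 FPKM with vehicle, 9.06, 8.1 and 8.41 with enzalutamide, 6.49, 5.71 and 4.95 with DHT, 4.88, 2.93 and 3.63 with JQ-1, 4.28, 4.61 and 4.7 with enzalutamide and JQ-1, and 1.21, 3.36 and 2.17 with DHT and JQ-1. JQ-1 added to DHT thus went with higher MT2A and MT1X and lower MT1F, with limma log2 changes of 1.16, 0.83 and -1.10. The JQ-1 effect alone was -1.26 (SE 0.13, limma adjusted p = 2.95e-05), and the DHT effect -0.77 (SE 0.08, limma adjusted p = 4.17e-05). At most 4 reads of MT1F were counted in any stripped serum library, so counts gave no test. The pseudogene MT1DP had a like order on FPKM, at 4.76 to 6.42 with vehicle, 2.02 to 2.6 with DHT and 1.08 to 1.96 with JQ-1. Which of the paralogs the reads came from was not tested.

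**Figure D3:**
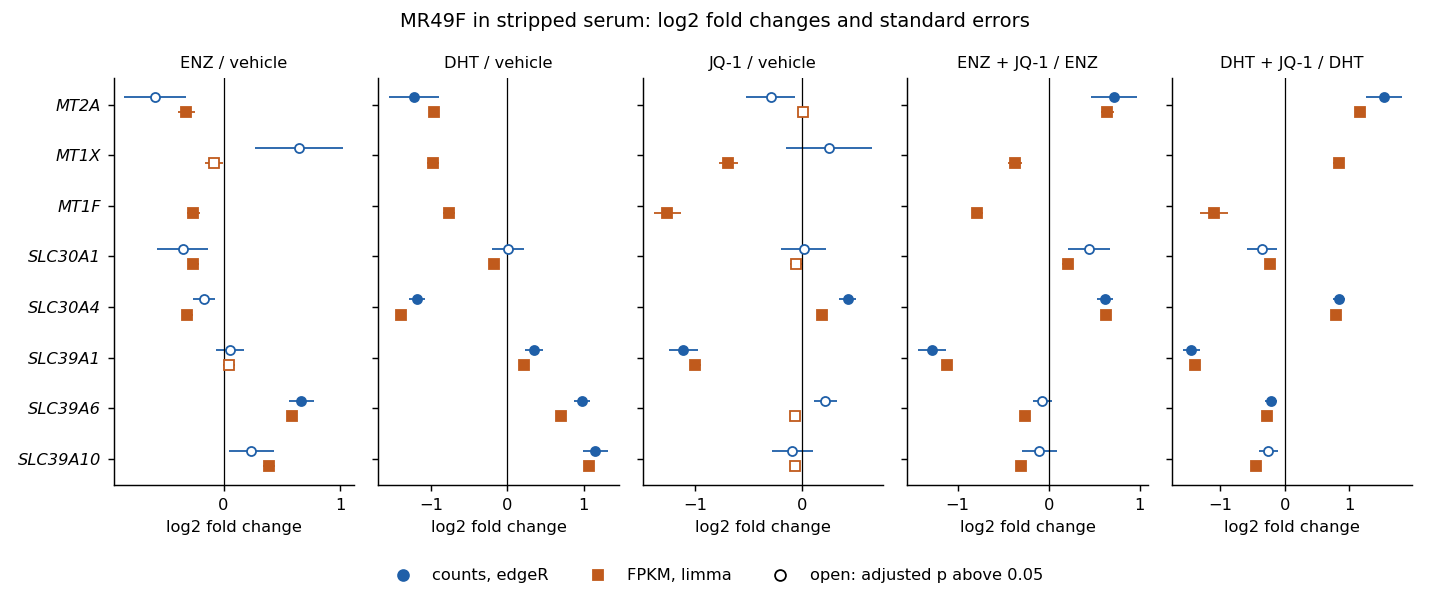
Log2 fold changes (horizontal axes) of 8 members (vertical axis) in MR49F cells in stripped serum for 5 comparisons. Circles are edgeR on counts, squares limma on log2(FPKM + 1), bars are standard errors, open symbols have an adjusted p above 0.05, and a missing circle means that the gene failed the count filter. MT2A and SLC30A4 lie left of 0 with DHT and right of 0 when JQ-1 is added to DHT, and SLC39A1 lies at -1.11, -1.28 and -1.45 on counts in the 3 comparisons that add JQ-1.

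SLC30A1, the exporter that returns zinc to the medium and a known MTF1 target (chr1:211744910-211752503, minus strand), varied least. Its group means ran from 5.67 FPKM with DHT and JQ-1 to 8.54 in MR49F with enzalutamide in full serum, and 8 of the 9 neighbours in that order overlapped. No comparison in full serum passed, with edgeR log2 fold changes of 0.00 (SE 0.07) in V16D and 0.08 (SE 0.08) in MR49F for enzalutamide. In stripped serum it was at 8.14, 7.56 and 7.92 FPKM with vehicle and 6.3, 6.53 and 6.4 with enzalutamide, which did not overlap. That difference was -0.26 (SE 0.05, limma adjusted p = 0.00242) on FPKM and -0.35 (SE 0.22, edgeR adjusted p = 0.40) on 15 to 37 reads. The DHT difference on FPKM, -0.18 (limma adjusted p = 0.0309), was lost without vehicle replicate 1 or 3 or DHT replicate 2 (adjusted p = 0.0663 to 0.106), and on counts it was 0.01 (SE 0.22).

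SLC30A4, the vesicular exporter (chr15:45771804-45814953, minus strand), had the widest range of levels among those 8 members over both serum experiments. It responded to enzalutamide in both lines on counts. In full serum its FPKM was 46.6, 47.2 and 47.5 in V16D vehicle, 69.2, 71.4 and 71.9 in V16D enzalutamide, 11.3, 14.8 and 15 in MR49F vehicle and 19.2, 20.6 and 21.1 in MR49F enzalutamide libraries. No groups overlapped, and MR49F cells had less than V16D cells. It rose with enzalutamide by 0.56 (SE 0.03, edgeR adjusted p = 3.25e-83) in V16D and by 0.53 (SE 0.08, edgeR adjusted p = 0.00288) in MR49F, where limma on FPKM gave an adjusted p of 0.0511. The lines did not differ detectably in this effect (difference -0.04, SE 0.08, edgeR adjusted p = 0.867). Under vehicle it was lower in MR49F by 1.80 on the log2 scale of counts (log2 fold change -1.80, SE 0.08, edgeR adjusted p = 3.99e-09).

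In stripped serum SLC30A4 fell with DHT and rose with JQ-1. Vehicle libraries were at 104, 98.2 and 99.3 FPKM, enzalutamide at 77.9, 83.8 and 80.6, DHT at 40.8, 37.2 and 34.3 and JQ-1 at 119, 114 and 112. Enzalutamide with JQ-1 gave 129, 129 and 117, and DHT with JQ-1 69.4, 64.5 and 61.8. Except for JQ-1 with and without enzalutamide, no 2 of these 6 groups overlapped. The DHT effect was -1.19 (SE 0.10, edgeR adjusted p = 1.01e-09) on counts and -1.40 (SE 0.06, limma adjusted p = 1.67e-07) on FPKM. Enzalutamide gave -0.17 (SE 0.10, edgeR adjusted p = 0.355) and -0.31 (SE 0.04, limma adjusted p = 0.000717), so that a fall passed on FPKM only, and DHT was lower than enzalutamide by both measures (-1.03, SE 0.10, edgeR adjusted p = 1.83e-07, and -1.09, SE 0.06, limma adjusted p = 1.08e-06).

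JQ-1 raised SLC30A4 in all 3 settings. The rise was 0.43 (SE 0.08, edgeR adjusted p = 2e-05) on counts and 0.19 (SE 0.04, limma adjusted p = 0.00155) on FPKM without ligand. Added to enzalutamide it was 0.62 on both measures (SE 0.09, edgeR adjusted p = 3.22e-06, and SE 0.05, limma adjusted p = 4.18e-06), and added to DHT 0.84 (SE 0.10, edgeR adjusted p = 5.15e-09) and 0.79 (SE 0.07, limma adjusted p = 1.02e-05). DHT and JQ-1 together still left it below vehicle, with no overlap. The DHT effect differed with and without JQ-1 by 0.40 (SE 0.13, edgeR adjusted p = 0.032) and 0.59 (SE 0.08, limma adjusted p = 0.000108). The count call was lost in DESeq2 (adjusted p = 0.109) and without vehicle replicate 1, JQ-1 replicate 2 or 3, DHT replicate 3 or combination replicate 1 (0.0504 to 0.139).

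The serum and the experiment cannot be told apart, so SLC30A4 levels in both are given side by side only: 13.7 ± 2.12 FPKM (SD, n = 3) in MR49F vehicle cells in full serum and 100.4 ± 2.86 in stripped serum. FPKM of all genes summed to 611911 to 800845 in these full serum libraries and 397238 to 415801 in the stripped serum ones, without rescaling. SLC30A4 overlaps the pseudogene HMGN2P46 (chr15:45803334-45878488, plus strand) by 215 exonic bases on the opposite strand. HMGN2P46 had 39, 43 and 39 reads in MR49F vehicle libraries in full serum and 801, 603 and 692 in stripped serum, where fewer reads were on genes, while its FPKM was 7.16, 9.91 and 10.7 and then 6.74, 7.85 and 8.13. Reads of the 2 genes in that overlap cannot be told apart without strand, and their part in the SLC30A4 values was not tested.

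**Figure D4:**
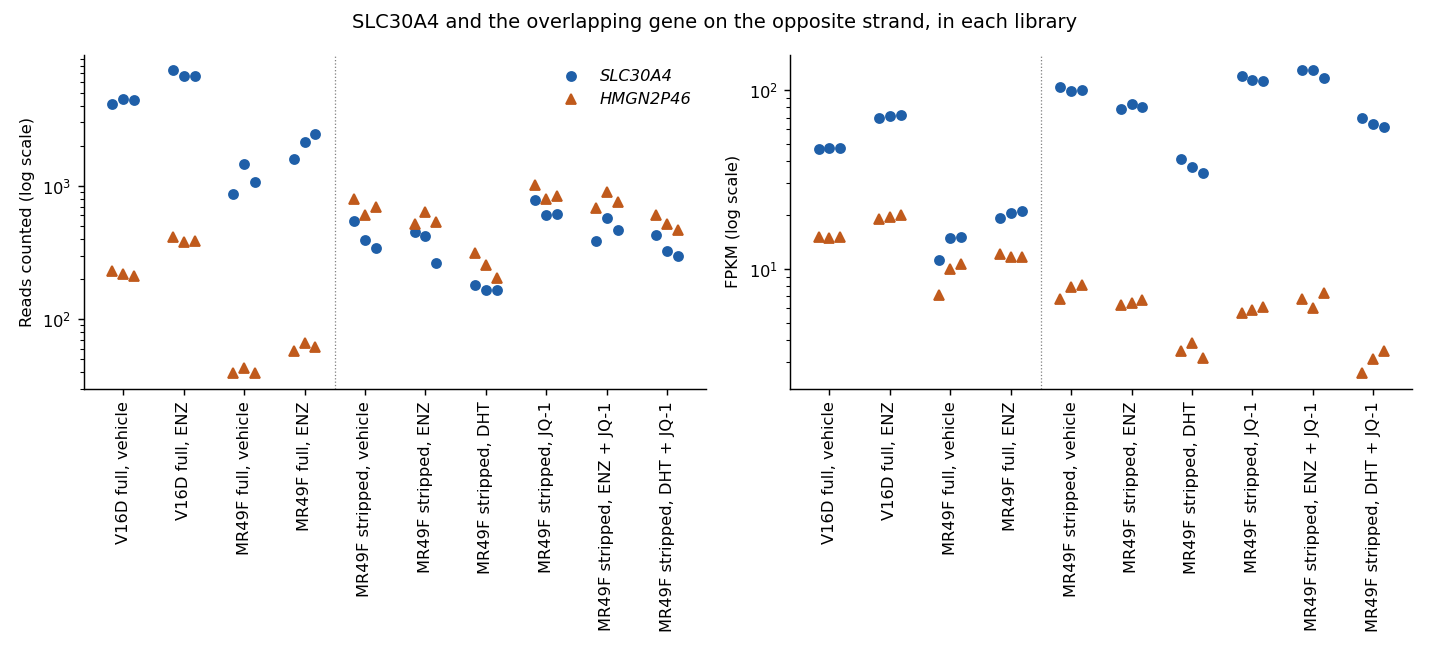
Reads counted (left, log scale) and FPKM (right, log scale) of SLC30A4 (circles) and of HMGN2P46 on the opposite strand (triangles) in each library of the 10 conditions (horizontal axes). Left of the dotted line, in full serum, HMGN2P46 has 39 to 414 reads and always fewer than SLC30A4. Right of it, in stripped serum, it has 202 to 1023 and more than SLC30A4 in all 18 libraries, while its FPKM stays lower throughout.

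SLC39A6 (LIV-1, chr18:33688494-33709348, minus strand), first known as an oestrogen-regulated gene of breast cancer cells, was the member whose response to enzalutamide passed the test of a difference between the lines. In full serum it had 48.9, 46.5 and 48.3 FPKM in V16D vehicle and 37.6, 36 and 37.5 in V16D enzalutamide libraries, against 48.5, 47.6 and 48.1 and 47.5, 46.4 and 47.1 in MR49F. The V16D groups were far apart, while in MR49F the treated libraries lay just below the vehicle ones without overlap. It fell by 0.40 on the log2 scale in V16D (log2 fold change -0.40, SE 0.03, edgeR adjusted p = 2.12e-40), while the change of -0.07 in MR49F (SE 0.04, edgeR adjusted p = 0.331) did not pass. The difference between the lines was 0.32 (SE 0.06, edgeR adjusted p = 0.000614), and 0.33 on FPKM (SE 0.04, limma adjusted p = 0.000496).

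In stripped serum the same drug raised SLC39A6 in MR49F cells. Libraries were at 30.9, 32 and 31.9 FPKM with vehicle, 46.3, 47.7 and 49.8 with enzalutamide, 53.6, 51.3 and 50.8 with DHT and 30, 29.3 and 30.9 with JQ-1. With enzalutamide and JQ-1 they were at 40.6, 38.9 and 39.4, and with DHT and JQ-1 at 42.3, 44 and 41.2. Both ligands took it above vehicle without overlap, with JQ-1 present as well as without. Enzalutamide raised it by 0.67 (SE 0.10, edgeR adjusted p = 0.000371) on counts and 0.59 (SE 0.04, limma adjusted p = 1.6e-05) on FPKM, and DHT by 0.98 (SE 0.10, edgeR adjusted p = 4.62e-08) and 0.70 (SE 0.04, limma adjusted p = 6.98e-07). DHT stood above enzalutamide by 0.30 (SE 0.10, edgeR adjusted p = 0.0408) on counts and 0.11 (SE 0.04, limma adjusted p = 0.0519) on FPKM, so that this difference passed on counts only. The count call was lost in DESeq2 (adjusted p = 0.159) and without enzalutamide replicate 1, 2 or 3 or DHT replicate 1 or 2 (0.0705 to 0.106). The FPKM difference passed with rescaling by median ratio (limma adjusted p = 0.0444), with all groups in 1 fit (0.0111) and without enzalutamide replicate 3 (0.0277).

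JQ-1 lowered SLC39A6 in the presence of DHT, by a log2 change of -0.22 (SE 0.09, edgeR adjusted p = 0.0399) on counts and -0.28 (SE 0.04, limma adjusted p = 0.000223) on FPKM. The count call was narrow and was lost in DESeq2 (adjusted p = 0.185) and without DHT replicate 1 or 2 or combination replicate 1, 2 or 3 (0.093 to 0.111). With enzalutamide only FPKM passed (-0.27, SE 0.04, limma adjusted p = 0.000306, against -0.07, SE 0.11, edgeR adjusted p = 0.61). The DHT effect was smaller with JQ-1, with a difference of -0.45 (SE 0.14, edgeR adjusted p = 0.0243) and -0.21 (SE 0.05, limma adjusted p = 0.00362), which on counts was lost in DESeq2 (adjusted p = 0.104) and without JQ-1 replicate 1 or 2 or vehicle replicate 2 (0.0565 to 0.0817). JQ-1 alone, which enters this difference, gave 0.22 on counts (SE 0.11, edgeR adjusted p = 0.0828) and -0.07 on FPKM (SE 0.03, limma adjusted p = 0.107). These values differed in sign, and neither passed.

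SLC39A10 (chr2:196440701-196602426, plus strand), a relative of SLC39A6 with which it can form a complex, rose most with DHT. Its FPKM in stripped serum was 6.82, 7.29 and 6.44 with vehicle, 9.03, 9.16 and 9.61 with enzalutamide, 16.4, 14.9 and 15 with DHT, 6.56, 6.35 and 6.6 with JQ-1, 7.67, 7.03 and 7.17 with enzalutamide and JQ-1, and 11.4, 10.9 and 11 with DHT and JQ-1. DHT libraries were above all others, with and without JQ-1. The DHT effect was 1.16 (SE 0.16, edgeR adjusted p = 3.86e-06) on counts and 1.07 (SE 0.06, limma adjusted p = 5.38e-07) on FPKM, and DHT exceeded enzalutamide by 0.91 (SE 0.16, edgeR adjusted p = 0.000283) and 0.68 (SE 0.05, limma adjusted p = 5.84e-06). For enzalutamide the FPKM difference of 0.39 (SE 0.05, limma adjusted p = 0.00058) passed and that of 0.24 on 27 to 58 reads did not (SE 0.19, edgeR adjusted p = 0.535). The DHT effect on FPKM was smaller with JQ-1 (difference -0.38, SE 0.07, limma adjusted p = 0.000602), and JQ-1 added to DHT gave -0.44 on FPKM (SE 0.05, limma adjusted p = 3.64e-05) and -0.26 on counts (SE 0.14, edgeR adjusted p = 0.13). The enzalutamide effect also differed with and without JQ-1 on FPKM, while no such difference passed on counts, by 0.43 for SLC30A4 (SE 0.06, limma adjusted p = 0.000688), -0.20 for SLC39A6 (SE 0.05, limma adjusted p = 0.0165) and -0.24 for SLC39A10 (SE 0.07, limma adjusted p = 0.0256). The last was lost without any one of 7 libraries (vehicle replicates 1 and 3, JQ-1 replicates 1 and 3, enzalutamide replicate 3, or the combination's replicates 2 and 3, limma adjusted p = 0.0508 to 0.0602).

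In full serum SLC39A10 had 8.81, 8.35 and 9.24 FPKM in V16D vehicle libraries and 7.09, 7.46 and 7.54 with enzalutamide. It fell with the drug in V16D (log2 fold change -0.29, SE 0.04, edgeR adjusted p = 6.53e-10) and was lower in MR49F than in V16D under vehicle (-0.38, SE 0.06, edgeR adjusted p = 0.000198). In MR49F the vehicle libraries were at 6.27, 6.67 and 7.34 and the treated ones at 6.33, 6.73 and 6.39, which overlapped. The change there was -0.10 (SE 0.06, edgeR adjusted p = 0.323), and the difference between the lines of 0.18 (SE 0.07, edgeR adjusted p = 0.166) did not pass.

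SLC39A1 (chr1:153931575-153940660, minus strand), the broadly expressed importer of prostate cells, hardly moved without JQ-1. It was at 33.2 to 38.2 FPKM in the 12 full serum libraries, 30.1, 32.4 and 32.3 with vehicle in stripped serum, 34.5, 31.7 and 31.9 with enzalutamide and 34.8, 36.5 and 39.4 with DHT. With JQ-1 it was at 15.6, 14.2 and 16.1, with enzalutamide and JQ-1 at 14.1, 14.8 and 14.7, and with DHT and JQ-1 at 13.5, 13 and 14. All libraries with JQ-1 had less than all those without. SLC39A1 fell with JQ-1 by 1.11 (SE 0.14, edgeR adjusted p = 2.99e-09) on the log2 scale of counts and by 1.00 (SE 0.05, limma adjusted p = 6.29e-07) on that of FPKM + 1, with enzalutamide present by 1.28 (SE 0.15, edgeR adjusted p = 1.41e-07) and 1.12 (SE 0.05, limma adjusted p = 1.03e-07), and with DHT present by 1.45 (SE 0.14, edgeR adjusted p = 3.02e-11) and 1.39 (SE 0.05, limma adjusted p = 1.11e-07).

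DHT raised SLC39A1 by 0.34 (SE 0.12, edgeR adjusted p = 0.0238) on counts and 0.22 (SE 0.05, limma adjusted p = 0.00614) on FPKM. The count call was lost in DESeq2 (adjusted p = 0.125) and without vehicle replicate 1 or 2 or DHT replicate 2 (0.113, 0.0681 and 0.0781). The DHT effect differed with and without JQ-1 by -0.33 (SE 0.19, edgeR adjusted p = 0.288) on counts and -0.39 (SE 0.08, limma adjusted p = 0.00153) on FPKM. Only the FPKM difference passed. In V16D the fall with enzalutamide of 0.09 (log2 fold change -0.09, SE 0.04, edgeR adjusted p = 0.0221) was lost without enzalutamide replicate 1 or 3 or vehicle replicate 3 (0.0979, 0.136 and 0.128), in DESeq2 (0.133), with all groups in 1 fit (0.125) and in limma on FPKM (0.418), and the groups overlapped. Of its 50-base windows, 95.8% also lie in 1 other gene model of GENCODE, so its reads could be split wherever both are annotated. SLC39A1 also overlaps CREB3L4, a transcription factor gene on the opposite strand, by 280 exonic bases. CREB3L4 FPKM was 33.2 to 36.6 with vehicle, 88.8 to 92.9 with DHT and 3.97 to 4.57 with JQ-1, and in V16D 70.2 to 73.8 with vehicle and 45 to 46.5 with enzalutamide. Its part in the SLC39A1 values was not tested.

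Whether the enzalutamide effect in MR49F cells differed between the serum experiments could be tested on FPKM only. It did for 6 of the 9 members that passed the filter, where 34.1% of 12981 genes passed in limma. These FPKM were not rescaled between libraries. Over all genes they summed to 611911 to 858576 in the full serum libraries and 397238 to 423932 in the stripped serum ones. With rescaling by median ratio all 9 members passed, with MT1F, MT1X and SLC39A1 added (limma adjusted p = 0.0477, 0.0494 and 0.0322). SLC30A4 went from a higher level with the drug in full serum to a lower one in stripped serum, a difference of -0.85 (SE 0.12, limma adjusted p = 0.000456), and MT2A likewise (-0.63, SE 0.11, limma adjusted p = 0.00156). SLC39A6 (0.62, SE 0.05, limma adjusted p = 4.44e-06) and SLC39A10 (0.44, SE 0.08, limma adjusted p = 0.00206) had the opposite sign, with little change in full serum and higher levels with the drug in stripped serum. SLC30A1 gave -0.37 (SE 0.10, limma adjusted p = 0.0198) and MT1G, at or near 0 in stripped serum, -0.38 (SE 0.11, limma adjusted p = 0.0259). MT1G passed the filter through its full serum libraries alone, so its difference restates its change in full serum. The MT1G call was lost without any one of 5 libraries (limma adjusted p = 0.05 to 0.0612), namely MR49F enzalutamide replicates 2 and 3 and vehicle replicate 2 in full serum and enzalutamide replicate 1 and vehicle replicate 2 in stripped serum, and its sign turned with log2(FPKM + 0.1). Serum and experiment cannot be told apart in these differences.

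The other members of both transporter families moved in part with these genes. Of 8 other SLC30 genes, 4 were tested on both measures, and of 11 other SLC39 genes 6 or 7. Between the lines under vehicle, SLC39A8, an importer of zinc, manganese and cadmium, was lowest in MR49F relative to V16D, at 41.2, 41.4 and 42.4 FPKM in V16D and 5.37, 6.32 and 6.77 in MR49F (log2 fold change -2.76, SE 0.06, edgeR adjusted p = 1.66e-11). SLC39A4, the intestinal zinc importer, was higher in MR49F (0.77, SE 0.07, edgeR adjusted p = 2.72e-06). For enzalutamide, 2 SLC30 genes rose and 2 fell in V16D among 7 tested, and 2 SLC39 genes rose and 3 fell among 7, beside 37.5% of all genes called, with median log2 changes of 0.02 and -0.10 beside 0.00 over all genes. In MR49F SLC39A13, a transporter of the Golgi, was the only one of these to pass (0.44, SE 0.07, edgeR adjusted p = 0.00328).

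In stripped serum DHT raised SLC30A7, an exporter into the secretory pathway (0.74, SE 0.24, edgeR adjusted p = 0.0169, and 0.65, SE 0.08, limma adjusted p = 7.2e-05), and SLC39A14, an importer of zinc and iron (0.48, SE 0.13, edgeR adjusted p = 0.0053, and 0.43, SE 0.05, limma adjusted p = 6.94e-05). It lowered SLC39A13 (-0.86, SE 0.21, edgeR adjusted p = 0.0026, and -0.71, SE 0.06, limma adjusted p = 1.3e-05). With JQ-1, 1 of 4 SLC30 genes rose and 3 of 7 SLC39 genes fell on both measures, beside 46.6% of all genes called on counts and 75.1% on FPKM, and nothing particular to the families is read from these counts. In the same comparison the median FPKM change of the 8 other SLC39 genes tested was -0.35 beside -0.06 over all genes. On counts SLC39A4 had the largest of these changes, from 8.93, 8.07 and 9.14 FPKM with vehicle to 4.67, 4.82 and 5.03 with JQ-1 (-1.65, SE 0.19, edgeR adjusted p = 3.71e-10, and -0.73, SE 0.05, limma adjusted p = 4.44e-06). SLC30A9 rose in all 3 comparisons that add JQ-1, by 0.46, 0.47 and 0.56 on counts (SE 0.10, 0.11 and 0.11, largest edgeR adjusted p = 0.00119). MTF1, the zinc sensor, was at 4.57 to 4.78 FPKM with vehicle, 4.62 to 4.81 with DHT and 5.72 to 6.06 with JQ-1, and it rose when JQ-1 was added to DHT (0.37, SE 0.16, edgeR adjusted p = 0.0408, and 0.24, SE 0.04, limma adjusted p = 0.000903) and to enzalutamide (0.54, SE 0.18, edgeR adjusted p = 0.0134, and 0.27, SE 0.05, limma adjusted p = 0.00112). With JQ-1 alone it passed on FPKM only (0.28, SE 0.04, limma adjusted p = 0.000408, against 0.25, SE 0.16, edgeR adjusted p = 0.189 on counts). SLC39A7, an importer into the cytosol from the secretory pathway, had 0 reads in all 30 libraries and 27.6 to 74.2 FPKM, so no count could be set beside its values.

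**Figure D5:**
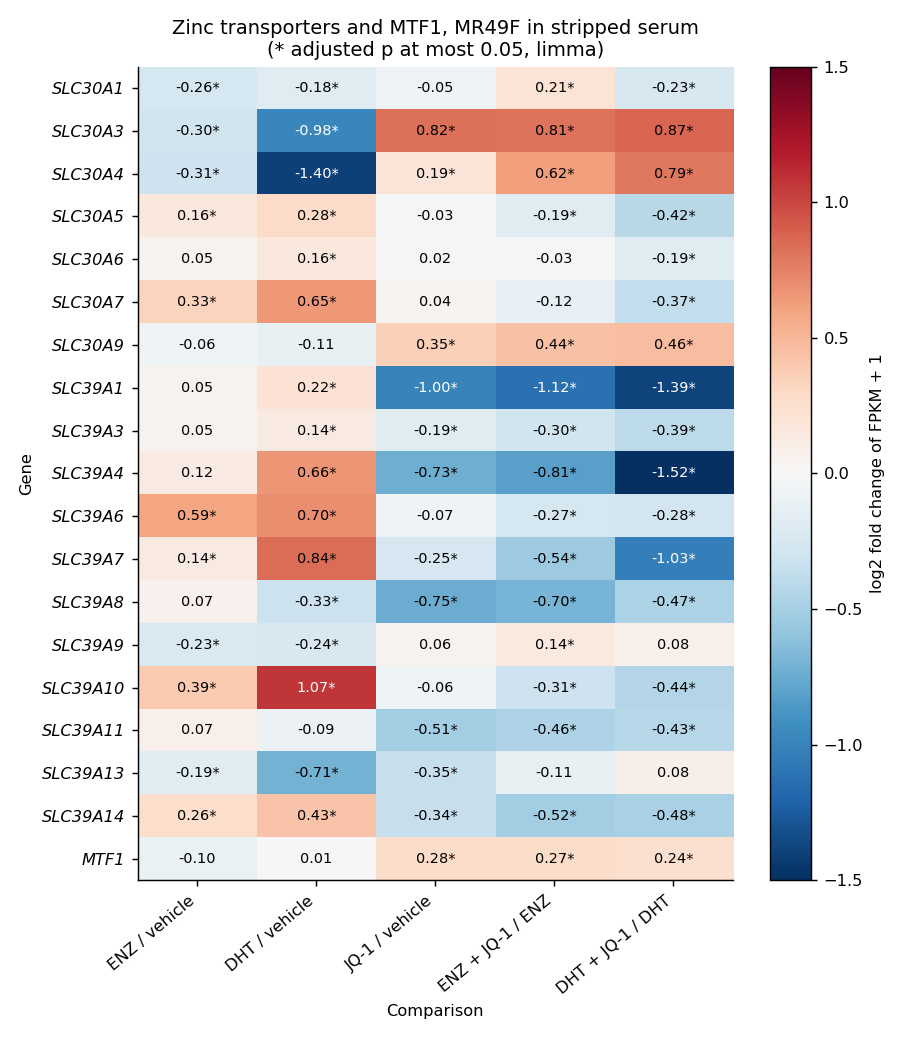
Log2 fold changes of FPKM + 1 (colour, from -1.5 to 1.5, with the value in each cell) of 18 zinc transporters and MTF1 (vertical axis) in 5 stripped serum comparisons (horizontal axis), with an asterisk where the adjusted p in limma was at most 0.05. Most SLC39 genes are blue in the 3 comparisons that add JQ-1, SLC30A3, SLC30A4 and SLC30A9 are red there, and SLC30A4 and SLC39A10 stand at -1.40 and 1.07 with DHT. SLC30A1 stands at -0.05, 0.21 and -0.23 in those 3 comparisons. Over all genes 75.1 to 78.8% passed in them on FPKM, with more lower than higher.

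The order of the 10 conditions differed between members. For SLC30A4 only 2 of the 9 neighbouring pairs of conditions overlapped, for MT2A and SLC39A6 4, for SLC39A10 6, for MT1F and SLC39A1 7 and for MT1X and SLC30A1 8. As a description over all 30 libraries, which share lines, serum and treatment, the gene with the most similar log2(FPKM + 1) among 8890 genes averaging at least 5 FPKM was LAPTM4B for SLC30A4 (Pearson r = 0.964), COMMD2 for MT2A (0.936), SLC41A1 for SLC39A10 (0.958) and SLC25A37 for SLC39A6 (0.939). For SLC39A1 it was LOC100506190 (0.989), for MT1F EXD2 (0.905), for SLC30A1 IRAK4 (0.775) and for MT1X TMEM64 (0.696).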

How the data were processed

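RNA was poly-A selected, and strand-specific libraries (Agilent SureSelect) were read as single 50-base reads from 30 samples, 3 in each of 10 groups, which were taken from the sample labels. According to the submitters' processing notes and the methods, the authors aligned reads to GRCh37 with TopHat2 2.0.9. The deposited counts are whole numbers of reads per gene symbol from HTSeq, not normalized, with 1 file for each sample. The deposited FPKM values were made by the authors with Cufflinks 2.1.1 for each of 43497 transcripts, and were summed here per gene symbol (23616 symbols). Reads without a feature and ambiguous reads were left out of library sizes and tests.

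Counts were tested with the quasi-likelihood test of edgeR 4.0.16 (R 4.3.3) after TMM scaling and filterByExpr (minimum count 10, minimum total 15). FPKM were tested with limma 3.58.1 (trend) on log2(FPKM + 1), in genes with at least 1 FPKM in at least 3 samples. That scale understates changes of low genes. Each contrast was fitted on its own groups across all genes, p-values were adjusted by Benjamini-Hochberg over all genes tested, and 0.05 was the threshold. The standard error of a count log2 fold change was taken from its F statistic. In full serum the count test was the main one. Counts and FPKM stood side by side in stripped serum, and FPKM alone was used across the serum experiments. Members and gene lists were chosen with earlier results of these data known. Of the other transporters, at most 3 with the largest changes past the threshold were named for each comparison, and the most similar gene was taken by Pearson r. Alternatives were other filters, scaling, pseudocount and tests (DESeq2 1.42.0), a replicate block, all groups in 1 fit and leaving out each library. Intervals and limits from counts cover counting error only. Tested on simulated data with 200 genes changed 2-fold, the count test recovered 199 in V16D with enzalutamide (14026 genes), 194 with DHT (10902 genes) and 154 for the difference of the DHT effect with JQ-1 (11369 genes). It also called 8, 13 and 5 unchanged genes. Genes with low expected counts were never among the changed ones, and all genes had the same spread. The recovery therefore does not cover members with few reads in stripped serum, such as MT1X and MT1F. Gene positions and coding sequences were from GENCODE release 44 mapped to GRCh37, and promoters from RefSeq (GRCh38.p14). No 2 libraries held identical counts. The luminal marker list is not reported here.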

Additional observations from a re-analysis of the deposited data

Results flagged for a closer look

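SLC39A6 responded differently to enzalutamide in the 2 cell lines in full serum. The log2 fold change was -0.40 in V16D and -0.07 in MR49F, and the interaction of line and drug was 0.32 (edgeR adjusted p = 0.000614).

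Effects of enzalutamide on MR49F cells also differed between full and stripped serum by an interaction in limma on log2(FPKM + 1), where serum and experiment cannot be told apart. The differences (stripped minus full) were -0.85 for SLC30A4 (limma adjusted p = 0.000456), -0.63 for MT2A (0.00156), -0.37 for SLC30A1 (0.0198), 0.44 for SLC39A10 (0.00206) and 0.62 for SLC39A6 (4.44e-06). For MT1G the difference was -0.38 (limma adjusted p = 0.0259), but it had at most 0.476 FPKM and no counted read in stripped serum. It passed the filter through its full serum libraries alone, so the value restates its change in full serum. The call was lost without any one of 5 libraries, and its sign turned with log2(FPKM + 0.1). Groups of 3 libraries were too small for a test of outlying samples.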

How the results depend on the processing

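Of 2121 log2 fold changes of members recomputed under alternatives, 2012 kept their direction and their side of the threshold, 71 no longer passed, 37 newly passed and 1 reversed. The reversal was MT1G in the serum comparison, which was 0.027 with log2(FPKM + 0.1) (limma adjusted p = 0.975). The number of members called moved by over 1.5 times in 3 of 21 comparisons, and the cause was not tested. For enzalutamide in MR49F in full serum (2 called) it was 1 in DESeq2, 1 in limma on FPKM, 4 with all groups in 1 fit and 1 to 4 with 1 library left out, the 4 without vehicle replicate 1. For the difference between the lines (1 called) it was 2 with no filter, 2 with at least 10 counts in every sample and 1 to 3 with 1 library left out. For the change of the DHT effect with JQ-1 on counts (3 called) it was 1 in DESeq2 and 1 to 3 with 1 library left out.

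Over all genes, DESeq2 called 3489 in place of 5276 for enzalutamide in V16D, 366 in place of 808 for enzalutamide in stripped serum, 2720 in place of 4122 for DHT, 1157 in place of 2122 for DHT against enzalutamide, 3223 in place of 4902 for JQ-1 added to enzalutamide, 56 in place of 104 for the change of the enzalutamide effect with JQ-1 (182 with no filter) and 723 in place of 1428 for that of the DHT effect. For enzalutamide in MR49F in full serum, 1181 became 2558 with all groups in 1 fit, 575 in limma on FPKM and 406 to 2533 with 1 library left out. With 1 library left out, calls fell to as few as 414 of 808 for enzalutamide in stripped serum, rose to as many as 1579 from 1006 for the difference between the lines, and ran from 61 to 293 beside 104 for the change of the enzalutamide effect with JQ-1.

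Replicate numbers were not used to pair the libraries in the main tests. The mean correlation of same-numbered deviations on counts was -0.0175 in V16D, 0.0301 in MR49F and 0.0135 in stripped serum. On FPKM in stripped serum it ran from -0.508 to 0.198, with 12 of 45 same-numbered pairs over 0.1. A mean over pairs cannot show that no libraries were paired. With the replicate number as a block, 155 of 158 member values kept their call. Those that did not were MT2A with enzalutamide in MR49F (edgeR adjusted p = 0.0572), which left 1 member called there, SLC39A6 for DHT against enzalutamide on counts (edgeR adjusted p = 0.0757) and SLC39A1 for the same comparison on FPKM (limma adjusted p = 0.0677). Over all genes the block called 1323 in place of 808 for enzalutamide in stripped serum. Low counts limited the metallothioneins most, with at most 4 reads of MT1F and 16 of MT1X in any stripped serum library.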

Other observations

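Some genes of these families differed between the tables in ways that no comparison above used. SLC39A7 had 0 counted reads in all 30 libraries and group means of 29.5 to 71.1 FPKM, lowest with enzalutamide and JQ-1 and highest with DHT. SLC30A3, an exporter best known from synaptic vesicles, had higher FPKM in the 3 comparisons that add JQ-1, with log2 changes of 0.82 (SE 0.08, limma adjusted p = 2.7e-05) for JQ-1 alone, 0.81 (SE 0.10, limma adjusted p = 8.41e-05) with enzalutamide and 0.87 (SE 0.07, limma adjusted p = 5.79e-06) with DHT. Only 0 to 20 reads of SLC30A3 were counted in a stripped serum library. SLC39A4 had higher FPKM with DHT, at 13.8 to 15.1 against 8.07 to 9.14 with vehicle (log2 change 0.66, SE 0.06, limma adjusted p = 9.54e-06), while its counts of 61 to 80 and 60 to 105 overlapped.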
